A study of Mus musculus with 3 samples.

Results

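Nkx2.2 occupancy was examined at 8 genes for RNA-binding proteins that control splicing and mRNA stability: Cugbp1, Cugbp2, Rbms1, Rbms3, Qk, Mbnl1, Mbnl2 and Rbfox1. Every region of the deposited table whose gene list holds one of these names was taken, with Rbfox1 read under its older name A2bp1. This gave 70 of the 37271 regions, and each of the 8 genes had at least 4. Nkx2.2 is a homeodomain transcription factor of the oligodendrocyte lineage, and a monoclonal antibody was used to map it by ChIP-seq in cultured cells. The cells came from cortices of C57BL/6 mice of postnatal day 7. The oligodendrocytes (OLs) were differentiated in culture by 48 h without PDGF-AA and with 40 ng/mL of the thyroid hormone T3. The oligodendrocyte progenitor cells (OPCs), selected with an antibody to PDGFRA, were kept dividing with PDGF-AA at 10 ng/mL. Both media held 1 ng/mL NT-3 together with 10 ng/mL CNTF, and the labels give 1.5e7 cells per library. There is 1 library per cell state, so no difference has a replicate check and no p-value is given. An input library of both states was not analysed here. Occupancy does not show expression, so cell identity could not be checked from markers.

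The proteins fall into families. Cugbp1 and Cugbp2 (now named Celf1 and Celf2) encode CELF proteins, which bind GU-rich RNA and act on alternative splicing and on mRNA decay. Mbnl1 and Mbnl2 encode muscleblind proteins, zinc finger splicing regulators that expanded CUG repeats sequester in myotonic dystrophy and that often act against CELF proteins on the same exons. Qk encodes the KH-domain proteins QKI, which regulate splicing, stability and transport of myelin mRNAs, and mice with the quaking mutation lack proper myelin. Rbfox1 encodes a splicing regulator best known from neurons, heart and muscle, and Rbms1 and Rbms3 encode single-strand nucleic acid binding proteins. Cugbp2 and Rbms1 entered this set because of the signal of their strongest regions in these same libraries. Their values are therefore descriptions and support nothing beyond themselves.

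At Qk and Mbnl2 a called region covered the gene start, and RefSeq lists 1 start for each of these genes in its promoter table. Their promoters are shown because they are the start sites with a called region and a single RefSeq window. Each sequence runs from 250 bases before to 50 bases after the RefSeq start in build GRCm38.p6, on the gene's strand. Capitals mark AAGTG or its reverse complement, the core that NK-2 homeodomains recognise.
Qk promoter, chr17:10319312-10319611, minus strand: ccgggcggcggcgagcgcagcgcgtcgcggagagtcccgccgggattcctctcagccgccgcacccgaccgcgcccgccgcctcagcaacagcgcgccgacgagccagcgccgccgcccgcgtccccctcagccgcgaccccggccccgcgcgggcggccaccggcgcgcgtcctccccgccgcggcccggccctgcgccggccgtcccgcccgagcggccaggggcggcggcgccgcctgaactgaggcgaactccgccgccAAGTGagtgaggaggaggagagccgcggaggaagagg
Mbnl2 promoter, chr14:120275419-120275718, plus strand: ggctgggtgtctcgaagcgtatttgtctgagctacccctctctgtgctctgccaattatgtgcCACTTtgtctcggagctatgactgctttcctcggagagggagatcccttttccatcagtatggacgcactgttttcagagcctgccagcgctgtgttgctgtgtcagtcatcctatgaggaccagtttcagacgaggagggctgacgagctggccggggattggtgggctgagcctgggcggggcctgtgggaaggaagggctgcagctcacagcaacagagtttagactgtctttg
The Qk window held 1 AAGTG, beginning 13 bases after the start, and the Mbnl2 window held 1 on the reverse strand, beginning 187 bases before the start. Neither held the longer form TNAAGTG. Searched on both strands, AAGTG occurred in 46.4% of the 32851 RefSeq promoter windows and TNAAGTG in 11.5%. Of the 16 windows of the 8 genes, 9 held AAGTG and 4 held TNAAGTG. Celf2 has 5 of the 16, and some of its windows overlap, so the same bases are counted in more than 1 window. These 5 letters are common, so a match is a description of the sequence and not a binding site. GC content was 81.7% in the Qk window and 56.3% in the Mbnl2 window, against a median of 52.7% over all windows.

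By the authors' calls, most regions of the 8 genes were called in the OL library, and fewer were called in the OPC library. With the OL calls of the table reduced to the number of OPC calls, keeping the strongest, the order turned, to 27 in OL against 31 in OPC. Calls are the authors' marks that an interval of that library lies in the region. The OL library had a call in 60 of the 70 regions, 85.7% (exact Clopper-Pearson 95% interval 75.3 to 92.9%), where 85.3% of all regions had one. In OPC 31 regions were called, 44.3% (32.4 to 56.7%), where 38.6% of all regions were. Both libraries had a call in 21 regions, where the share over all regions was 23.8%. Calls in OL alone marked 39 regions and calls in OPC alone 10, beside 61.4% and 14.7% of all regions. These shares lie near the background of the series, and the intervals cover counting error over regions only. The intervals also treat the regions as independent, although many share a gene and all share the libraries, so they may be too narrow. Every gene had an OL call and 7 had an OPC call, with Cugbp1 as the exception, where 94.8% and 57.3% of genes with a region had one. The 8 genes hold 4 to 26 regions each, against a median of 2 per gene, so the gene counts are not matched for the number of regions.

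**Figure D1:**
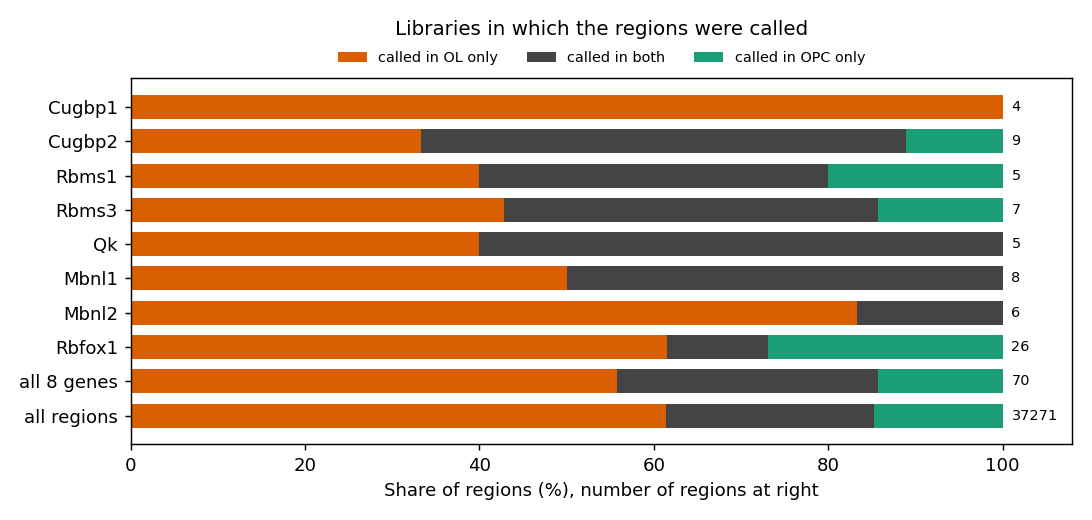
Share of regions (%) with a call in OL only, in both libraries or in OPC only, for each of the 8 genes, for all 70 of their regions and for all 37271 regions. Cugbp1 had 4 regions, all called in OL only, beside 61.4% of all regions. Qk, Mbnl1 and Mbnl2, with 5, 8 and 6 regions, had none called in OPC only, beside 14.7% of all regions. Of the 10 regions called in OPC only 7 lay in Rbfox1, which held 26 of the 70.

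The signal of a region is the deposited average over its length, on a scale the authors left. Region coordinates are those of the deposited table in mouse build mm9, which places a region in, upstream or downstream of a gene and does not tell exons from introns. Differences are given as log2((OL + 1) / (OPC + 1)), which understates the ratio of weak regions. Over the 70 regions the median log2 ratio was 0.93, with the middle of the distribution between 0.20 and 1.48 (quartiles), and over all regions the median was 0.74. A ratio that equals that shift of 0.74 is no more than what a typical region of the table shows. OL signal was higher than OPC signal at 53 regions, 75.7%, where 77.4% of all regions had more OL signal. The log2 ratio reached at least 1 at 33 regions, 47.1%, beside 37.5% of all regions, and was -1 or less at 4 regions, 5.71%, beside 7.03%. With the median of all regions set to 0 these counts became 13 and 11. How far regions at 1 or more outnumber those at -1 or less thus depends on the scaling. The same shift moves the shares over all regions, which were not recomputed, so the 13 and 11 have no background beside them. Taken gene by gene, 4 medians lay above that of all regions and 4 below it, and the middle of the 8 medians was 0.74. The OPC value was listed at 0 at 8 regions, each called in OL only, where 6.04% of all regions were listed at 0.

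**Figure D2:**
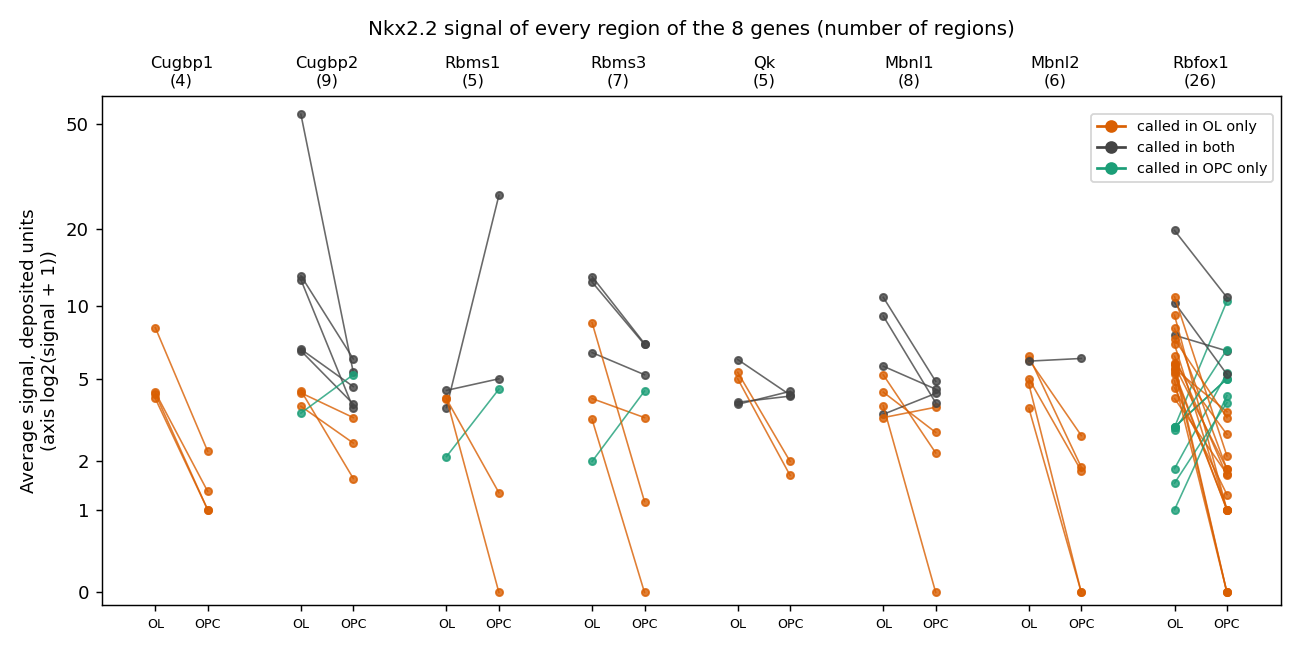
Deposited average signal of each of the 70 regions in OL and in OPC, joined by a line and grouped by gene, on a log2(signal + 1) axis with the colour giving the library of the call. The Cugbp2 region at 54.2 in OL and the Rbms1 region at 26.9 in OPC stand above the other regions of their genes, and lines run in both directions within Rbfox1.

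The CELF gene Cugbp2 carried the highest OL signal of the set. Its region chr2:6628908-6629502, 176837 bp into the gene, had 54.2 in OL and 5.33 in OPC, a log2 ratio of 3.12 and the 5th highest OL value of the table. The region was called in both libraries, and its highest single signal was 117 in OL and 14 in OPC. The other 8 regions of Cugbp2 reached at most 13.3 in OL, so the strongest was 4.09 times the next. Its OPC value was not exceptional within the gene, since a region 162611 bp in had 6.09 in OPC, with 13.3 in OL. At the far end, a region 296334 bp in had 12.8 in OL and 3.68 in OPC. The regions 290029 and 245040 bp in had 6.69 and 6.59 in OL, against 4.62 and 3.86 in OPC, and were also called in both libraries. Nearest the deposited start the order turned: the region 9588 bp in had 3.5 in OL and 5.21 in OPC and was called in OPC only. The median log2 ratio of the 9 regions was 0.64, below that of all regions, so the 3.12 belongs to 1 region and not to the gene as a whole. RefSeq lists 5 promoter windows for Celf2, and which of them matches the start used by the authors was not determined.

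Cugbp1, the other CELF gene, was called in OL and not in OPC at each of its 4 regions, where 61.4% of all regions were called in OL only. The strongest, chr2:90804771-90805349 and 24445 bp into the gene, had 8.22 in OL and 2.27 in OPC. A second region 69 bp farther on had 4.36 in OL and 1.33 in OPC. The region nearest the start lay 1144 bp inside the gene, overlapped a CpG island and had 4.29 in OL and 1.00 in OPC. The log2 ratios ran from 1.199 to 1.497, the narrowest range among the 8 genes, and the OL values other than the strongest were weak, between 4.09 and 4.36.

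Rbms1 differed from the other genes in having its strongest signal in OPC. Its region chr2:60634425-60635525, 166002 bp into the gene, had 3.71 in OL and 26.9 in OPC, a log2 ratio of -2.57. It merged 3 called intervals, was called in both libraries, and ranked 86th of 37271 in OPC. The highest single signal was 9 in OL and 55 in OPC. In OPC this value was 5.39 times the next in the gene, while in OL it lay within the narrow range of the gene, 2.13 to 4.44. The neighbouring region 174549 bp in also had less signal in OL, with 2.13 against 4.50 in OPC, and was called in OPC only. The region 83435 bp in also had less signal in OL: it had 4.44 in OL and 5.0 in OPC, a small difference. The other two had more signal in OL. One 121817 bp in had 4.09 in OL and was listed at 0 in OPC, and one at the start had 4.07 in OL and 1.31 in OPC. The median log2 ratio of the 5 regions was -0.14, the lowest of the 8 genes.

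Rbms3, which belongs to the same protein family, leaned toward OL at most of its 7 regions. Its strongest region, chr9:116716522-116717254 and 444373 bp into the gene, had 13.1 in OL and 7.06 in OPC. A region 171513 bp in was nearly as strong, with 12.5 in OL and 7.0 in OPC, and both were called in both libraries. The largest difference lay 210480 bp in, where OL had 8.60 and OPC 1.14, a log2 ratio of 2.16 at a region called in OL only. One region 360001 bp in had 2.00 in OL and 4.41 in OPC and was called in OPC only. The median log2 ratio was 0.75, close to that of all regions. Set side by side, the highest signal lay in OPC at Rbms1 and in OL at Rbms3, and with 1 region each this difference was not tested.

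Qk, the gene of this set with the best known part in myelination, had moderate signal in both states. Its 5 regions ranged from 3.84 to 6.05 in OL and from 1.67 to 4.40 in OPC, and the ranges overlap. The strongest, chr17:10501833-10502523 and 10541 bp into the gene, had 6.05 in OL and 4.24 in OPC. Regions 6763 and 91448 bp in had 3.84 and 3.93 in OL, against 4.40 and 4.19 in OPC, and these 3 regions were called in both libraries. The other two regions were called in OL only. One lay 79576 bp in, with 5.33 in OL and 2.00 in OPC. The other, chr17:10512350-10513149, covered the gene start, from 430 bases before it to 370 bases after it, with a CpG island, and had 5.0 in OL and 1.67 in OPC. The median log2 ratio was 0.43, and it lay at -0.31 once the median of all regions was set to 0.

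The muscleblind genes had 14 regions, all called in OL and 5 also in OPC, 35.7%. Over all regions 85.3% had an OL call and 38.6% an OPC call. At Mbnl1 the strongest region, chr3:60331433-60332557 and 26821 bp into the gene, had 10.9 in OL and 4.87 in OPC. A second, 89687 bp in, had 9.15 in OL and 3.91 in OPC. Both were called in both libraries, with log2 ratios of 1.02 and 1.05. Other regions of Mbnl1 showed little difference, such as the one 63238 bp in, with 5.67 in OL and 4.50 in OPC, and the one 67196 bp in, with 3.33 in OL and 3.73 in OPC. The last region, 106469 bp in, had 3.79 in OL and was listed at 0 in OPC. At Mbnl2 the OL values were narrower, from 3.68 to 6.24, and no region reached the level of the strongest in Mbnl1. Its highest OL value lay at the start, chr14:120674528-120675169, with 6.24 in OL and 1.86 in OPC. The one Mbnl2 region called in both libraries, 79771 bp in, had 5.96 in OL and 6.12 in OPC. A region 264 bp from it had 3.68 in OL and was listed at 0 in OPC. The median log2 ratio was 0.72 at Mbnl1 and 1.23 at Mbnl2.

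Rbfox1 held 26 of the 70 regions, and only 6 of the 14473 gene names in the table had more. This rank is not matched for gene length. The median gap between neighbouring regions was 24.7 kb in Rbfox1 and 28.2 kb in the whole table. The Rbfox1 regions spread from 13567 to 1383869 bp downstream of the deposited start, with none at that start itself. Its strongest, chr16:5992113-5992999 and 107465 bp in, had 19.8 in OL and 10.9 in OPC and was called in both libraries. A region 1186000 bp in had 10.95 in OL and 2.14 in OPC and was called in OL only. One 1101338 bp in had 10.4 in OL and 5.23 in OPC. RefSeq lists 2 promoter windows for Rbfox1, the second at chr16:7069585-7069884 in GRCm38.p6. Coordinates were not converted, so whether the region 1186000 bp in, chr16:7070752-7071431 in mm9, lies at that second start was not determined. OL alone had a call in 16 of the 26 regions, both libraries in 3 and OPC alone in 7, and the median log2 ratio was 0.93. As shares these are 61.5%, 11.5% and 26.9%, beside 61.4%, 23.8% and 14.7% of all regions. The share called in both was 40.9% over the 44 regions of the other 7 genes, above that of all regions, and none of these differences was tested.

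Within Rbfox1, regions with opposite calls stood next to each other. The closest pair was 121 bp apart: chr16:5911562-5911791 had 7.0 in OL and 1.00 in OPC and was called in OL only, while chr16:5911912-5912505 had 3.00 in OL and 10.5 in OPC and was called in OPC only. The next region, 32422 bp into the gene, again had less signal in OL, with 1.82 against 5.29 in OPC. Farther in, 1061438 bp from the start, a region had 1.00 in OL and 4.21 in OPC, the third region of the gene with a log2 ratio of -1 or less. Among the 25 pairs of neighbouring regions in the gene, 9 joined a region called in OL only with one called in OPC only, 36.0%, where 16.2% of neighbouring pairs in the whole table did. Over all 8 genes 11 of 62 pairs did, 17.7%, of which 9 lay in Rbfox1 and 1 each in Cugbp2 and Rbms3. The share of such pairs depends on how many regions have each call. In Rbfox1 26.9% of regions were called in OPC only, beside 14.7% of all regions, and the 36.0% was not adjusted for this. It therefore does not show an unusual order of the regions. Neighbouring pairs share regions and are not independent, so these shares are descriptions.

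**Figure D3:**
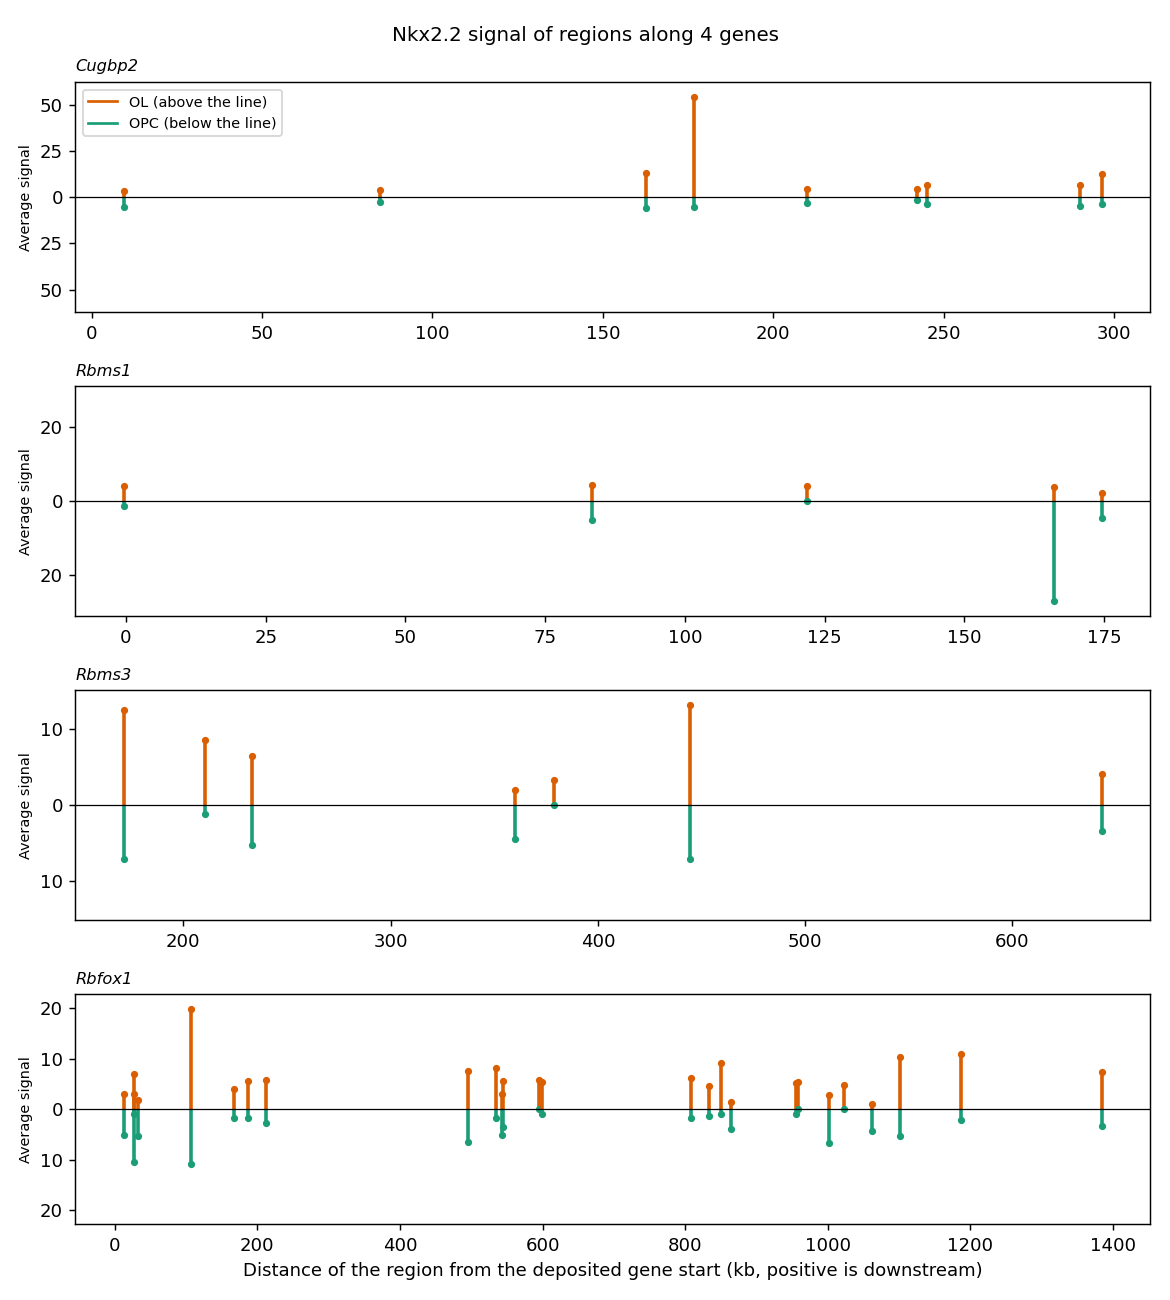
Deposited average signal in OL (above the line) and OPC (below the line) at each region of Cugbp2, Rbms1, Rbms3 and Rbfox1, against the distance of the region's middle from the deposited gene start in kb. The OL signal of 54.2 in Cugbp2 and the OPC signal of 26.9 in Rbms1 each sit at 1 region more than 100 kb into the gene, while Rbfox1 has many weaker regions of both kinds.

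Most of the regions lay inside the genes. Of the 70 regions 66 were in the gene, 94.3%, and 4 upstream, where 48.8% of all regions lay in a gene. A position more than 10 kb inside the gene was held by 62 regions, 88.6%, beside 34.8% of all regions, and one more than 100 kb inside by 42, beside 12.6%. Rbfox1 alone held 22 of these 42, and over the other 7 genes 20 of 44 regions lay that deep, 45.5%. Depth was counted from the deposited start, and some of these genes, Rbfox1 among them, have further RefSeq starts. Regions were taken by gene name, while all regions include those with no assigned gene. Such regions cannot count as lying in a gene or near a start, which lowers the shares over all regions here. The sets are thus unlike, and gene length was not matched, so these shares are descriptions. The strongest region lay over 100 kb inside the gene at 4 of the 8, Cugbp2, Rbms1, Rbms3 and Rbfox1. At the starts, 4 regions had their middle within 1 kb, 5.71%, where 17.7% of all regions lie that close to a gene start. These were at Rbms1, Qk, Mbnl1 and Mbnl2. Each of the 4 was called in OL only, where 59.4% of all promoter regions were. The signal was low: 4.07, 5.0, 4.36 and 6.24 in OL, against 1.31, 1.67, 2.83 and 1.86 in OPC, in that order of genes. Both groups of values are small, with 4 regions behind them. More OL signal goes with a call in OL only, since 99.1% of all regions called so had it. A second Mbnl2 region 1012 bp upstream, with 6.05 in OL and 2.73 in OPC, and the Cugbp1 region 1144 bp inside the gene lay just outside that distance and were also called in OL only. Regions at the start of Qk, Rbms1 and Mbnl1 overlapped a CpG island and the one at Mbnl2 did not. The Rbms1, Qk and Mbnl1 regions also list a second gene, and 7 of the 70 regions do.

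An average signal of 10 or more was reached by 9 regions in OL, 12.9%, beside 9.36% of all regions, and by 3 in OPC, 4.29%, beside 3.55%. These counts include the Cugbp2 and Rbms1 regions that brought their genes into the set. Without those regions they are 8 of 68 in OL, 11.8%, and 2 in OPC, 2.94%, so the OPC share lies on either side of the background. Both libraries had a call in 8 of the 9 regions of at least 10 in OL, and the exception was the Rbfox1 region 1186000 bp in. The share called in both among all regions of that OL signal was not computed, so the 8 has no background beside it. In OPC the 3 were the Rbms1 region at 26.9 and the Rbfox1 regions at 10.9 and 10.5.

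Other genes for RNA-binding regulators of splicing and stability were described in the same way. The list of 45 genes was chosen from the CELF, muscleblind, Rbfox, Elavl, Khdrbs, Nova, Musashi, Pumilio, Fmr1, Zfp36, Pcbp and Igf2bp families and related factors. Of these, 33 had a region, 73.3%, where 57.0% of the 21900 RefSeq protein-coding genes had one. The lists are not matched for gene length. The 45 were searched by current symbol and, for some, an older name, while the protein-coding genes were searched under every RefSeq synonym. A gene without a region may therefore be one not matched by name. An OL call was present at 32 of the 33 and an OPC call at 22, beside 94.8% and 57.3% of genes with a region. At the strongest region of each gene the log2 ratio was 1 or more at 11 of the 33, where 34.7% of genes with a region had it, and -1 or less at 3, where 4.19% had it. The median was 0.58 over the 33 genes and 0.73 over all genes with a region. The same counts over the 8 genes were 4 and 1. Those for which no region was found under the names searched included the family members Mbnl3, Rbfox3 and Celf5, and the 3 Igf2bp genes.

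The 5 genes of this list with the highest signal had it in OL at 4 and in OPC at 1. Khdrbs2, a gene for a STAR-family splicing regulator related to Qk, had a region 477291 bp into the gene with 29.4 in OL and 1.43 in OPC, a log2 ratio of 3.64. Celf4, listed as Brunol4 and of the same family as Cugbp2, had 21.9 in OL and 6.11 in OPC. Msi2, a gene for a Musashi translational regulator with 19 regions, reached 10.0 in OL and 19.8 in OPC at its strongest. Khsrp, which encodes a KH-domain protein of mRNA decay, had a region 360 bp upstream of its start with 17.2 in OL and 13.2 in OPC. Elavl2, a gene for a neuronal AU-rich element binding protein, had 17.1 in OL and 1.74 in OPC, a log2 ratio of 2.73. Rbfox2, a relative of Rbfox1 listed as Rbm9, had 8.50 in OL and 1.00 in OPC, a log2 ratio of 2.25. As in Cugbp2, the strongest regions of Khdrbs2 and Elavl2 lay over 100 kb inside the gene, but both were called in OL only.

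**Figure D4:**
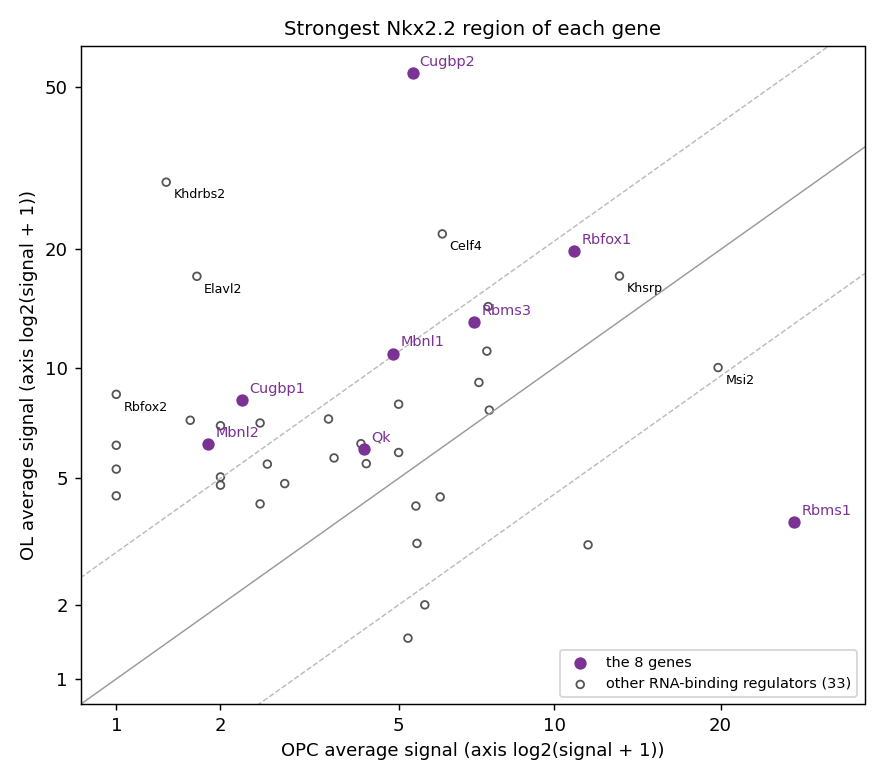
Average signal in OL (vertical axis) and OPC (horizontal axis), both on log2(signal + 1) axes, of the strongest region of each of the 8 genes and of 33 other genes for RNA-binding regulators. The solid line marks equal signal and the dashed lines a log2 ratio of 1 and -1; Cugbp2 and Khdrbs2 lie farthest above the lines and Rbms1 farthest below.

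Regions with a pair of values like those of the strongest Cugbp2 and Rbms1 regions were found by distance in log2(signal + 1) over the 2 libraries. Nearest to Cugbp2 were regions assigned to Slc16a10, with 45.2 in OL and 6.05 in OPC, to Arl5b, with 43.3 in OL and 5.21 in OPC, and to Lonp2, with 38.2 in OL and 5.25 in OPC. None of them reached the OL value of Cugbp2. Nearest to Rbms1 were regions assigned to LOC100042902, with 4.50 in OL and 27.6 in OPC, to BC065085, with 4.6 in OL and 23.1 in OPC, and to Chl1, with 3.33 in OL and 20.2 in OPC. Likeness over 2 values says how the signals compare and nothing of the genes.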

How the data were processed

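Per the labels, Nkx2.2 was immunoprecipitated from 1 OL and 1 OPC library, and the file headers show that the authors joined the called intervals into regions. The submitters' processing notes name BWA, MACS 1.4.2 and mouse mm9. How calls were thresholded, whether the input was used and whether libraries were scaled to each other is not given in the sources used here. The deposited values are signal per region, average and highest, and do not give read counts, so sequencing depth is unknown. Coordinates are as deposited, and whether starts count from 0 is not stated. Deposited distances run from the middle of a region, since for each of the 8 genes they then give one start within 1 bp.

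Regions were selected by gene name, and counts, medians and log2 ratios with a pseudocount of 1 were computed with Python 3.11.15 and pandas 2.3.3, without a filter on low signal. No test was run, because each state has 1 library. The ratio and motif code was tested on simulated data. Promoter sequences are from RefSeq (GRCm38.p6) and were matched by symbol or synonym, all 8 genes matching, without converting coordinates. Genes named were each gene's strongest region and start regions, and, from the list of 45, the 5 highest signals and any log2 ratio beyond 2 in size. Further regions of the 8 genes were named after their values were seen. The genes and lists were chosen with earlier results of these data known. Alternatives changed the pseudocount, the signal measure, the scaling, a filter, the region set and the calls.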

Additional observations from a re-analysis of the deposited data

How the results depend on the processing

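The median log2 ratio over the 70 regions stayed above 0 under each alternative run. It was 1.05 and 0.77 with a pseudocount of 0.5 and 2, 1.42 with the highest signal, 0.69 with the median of regions called in both set to 0, 0.20 with that of all regions set to 0, 0.81 among the 31 regions of mean signal above the table's median, and 0.94 both for regions in the gene or at its start and for those listing no other gene. Regions with a ratio of 1 or more numbered 13 with the median of all regions at 0, 10 under the signal filter (30.6% of all regions that pass it) and, in a comparison chosen after seeing the data, 21 without Rbfox1. Those at -1 or less numbered 7 with the highest signal, 8 with shared regions and 11 with all regions scaled to 0. Under the filter they numbered 2, beside 5.47% of all regions that pass it, and without Rbfox1 1. Without Rbfox1 the 21 and 1 are 47.7% and 2.27% of 44 regions, beside 37.5% and 7.03% of all regions. Shares over all regions were not computed for the highest signal or the changed scalings, so those counts have no background beside them. OL calls numbered 28 under the filter, which leaves fewer regions, and 89.5% of all regions that pass it have one. Under stricter calls there were 28 in OL, 15 in OPC and 10 in both, beside 42.8%, 20.7% and 12.4% of all regions. With the OL calls of the table reduced to the number of OPC calls, OL had 27 and OPC 31, so OL no longer had more calls, and both shares over all regions are then 38.6%. Setting the median of all regions to 0, which subtracts one value from every region, reversed the medians of Cugbp2 (-0.092), Qk (-0.31) and Mbnl1 (-0.021) and the strongest region of Qk (-0.31). The other 100 of 104 values for single genes kept their sign. Many of these could not turn: a pseudocount cannot change the sign of a region's ratio. A filter that removed no region of a gene also left its median as it was. No paired analysis was possible because each state has 1 library. Weak regions near 0 are limited by the unknown depth.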

Other observations

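Beside several of these genes lay regions to which the authors assigned no gene, and which are therefore outside the set. Between Cugbp2 and the next assigned region upstream lay 11 such regions, with OL calls at 8, OPC calls at 4 and at most 14.2 in OL and 13.3 in OPC. Upstream of Rbms3 there were 10, with OL calls at 7, OPC calls at 6 and at most 27.3 in OL and 9.55 in OPC. The highest values among the 4 downstream of Rbms3 were 32.9 in OL and 28.5 in OPC, above every region inside that gene. Downstream of Qk there were 32, with OL calls at 21 and OPC calls at 21 and at most 10.96 in OL and 16.8 in OPC, whereas inside Qk no region exceeded 6.05 in OL or 4.40 in OPC. Over all regions of the table, 85.3% had an OL call and 38.6% an OPC call. RefSeq lists 5 promoter windows for Celf2 and 2 for Rbms3, and which matches the deposited start was not determined. Some regions counted here as upstream of Cugbp2 or Rbms3 may therefore lie inside longer forms of these genes. Whether the regions without an assigned gene act on the genes beside them was not tested.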
